A study of Mus musculus with 3 samples.

Results

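The BCL2 family decides whether a cell keeps or loses the integrity of its mitochondria, and 10 of its genes were read here in VE-cadherin+ CD45+ yolk sac cells of mouse embryos with an Etv2 transgene and of control embryos. The genes are the survival genes Bcl2, Bcl2l1 and Mcl1, the pore formers Bax and Bak1, and the BH3-only genes Bcl2l11, Bbc3, Pmaip1, Bid and Bmf. They were taken by gene name from the non-control probes of the arrays. The rule uses no measured value, but the list was drawn up with earlier results of these data known. The names gave 12 probes of 55681, since Bcl2l1 and Mcl1 have 2 probes each and the other genes have 1. All 12 probes were well above background on every array, so all 10 genes are among the 19583 genes tested.

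The cells were sorted by flow cytometry as VE-cadherin+ and CD45+, which selects cells bearing an endothelial adhesion protein together with a protein of the blood cell surface. The Tie-2-Etv2 group has 2 arrays, from yolk sacs in which an Etv2 transgene was turned on by a Tie-2-driven Cre, and the control group has 1 array. All animals were of a mixed background (B6/CBA and others), and the embryonic stage, E10.5, is labelled for the control only. Tie-2 (Tek) is active in endothelium and in part of the blood lineage, so the transgene is not limited to the sorted cells. Etv2 encodes an ETS factor needed for the first blood and endothelial cells of the embryo. Which genotype the control embryos carried beyond the word control is not stated in the labels. It is not stated whether the Tie-2-Etv2 replicates are separate embryos, litters or pools, so a p-value reflects the spread of these samples alone, and that spread may be technical.

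In mitochondrial apoptosis the BH3-only proteins are the sensors: they are made or activated under stress, cytokine withdrawal or DNA damage, and they bind the survival proteins or the pore formers. BCL2, BCL-XL (the long product of Bcl2l1) and MCL1 hold the pore formers in check. BAX and BAK, once released, open the outer mitochondrial membrane, and cytochrome c then leads to caspase activation. In blood development BCL-XL is known for keeping maturing erythroid cells alive, and MCL1 for keeping stem and progenitor cells and granulocytes alive.

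Probes differ in which part of a transcript they read, and 3 of the 12 probe sequences are shown because they read protein-coding stretches that define the family. The Bcl2 probe (build mm9, chr1:108608970-108609029, minus strand, from base 1838 of its transcript) reads the BH1 region that lines the binding groove. The probe of Bcl2l1 called probe 2 here (mm9, chr2:152655185-152655244, minus strand, from base 674) reads a stretch that is present in BCL-XL and absent from BCL-XS, the short, death-promoting splice form known in human cells. The Bcl2l11 probe (mm9, chr2:127972893-127983988, plus strand, from base 682) spans at least 1 splice junction, as its 60 bases cover a genomic interval of that length, and it reads part of the BH3 domain. Each is printed 5′ to 3′ as deposited.
Bcl2: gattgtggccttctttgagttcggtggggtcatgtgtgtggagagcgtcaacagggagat
Bcl2l1: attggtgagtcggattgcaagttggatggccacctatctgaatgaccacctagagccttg
Bcl2l11: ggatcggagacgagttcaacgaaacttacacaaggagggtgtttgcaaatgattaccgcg

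Across the series, Tie-2-Etv2 replicate 1 had 24218 probes well above background, replicate 2 had 27014 and the control had 25457. For the 22764 probes detected in this sense on every array, the 75th percentile was 1199 intensity units for replicate 1, 2092 for replicate 2 and 2073 for the control. Signals are given as a percentage of that percentile, a pair of Tie-2-Etv2 values being those of replicates 1 and 2, and differences are of log2 signal, Tie-2-Etv2 minus control. Etv2 itself was 4.42 (replicate 1) and 3.22 (replicate 2) above the control on the log2 scale, Tek 3.04 and 2.02 above, Cdh5 (VE-cadherin) 4.46 and 2.60 above, while Ptprc (CD45) differed by -0.42 and -0.50. Every member rests on 1 spot per array, for which the scanner software gave an error of at most 12.0% of the signal. The number of arrays limits the precision further, and with 1 control array no exact permutation test can give a p below 0.333.

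No member passed the test. With limma, 0 of 10 members had an adjusted p under 0.05, against 0% of all 19583 genes, and 0 of 10 had an unadjusted p under 0.05, against 10.8% of all genes. By size, 0 of 10 reached 2-fold above the control on both replicates, against 3.92% of all genes, while Pmaip1 alone, 1 of 10, was 2-fold or more lower on both, against 6.64% of all genes (10.6% for either direction). By side alone, 2 members lay above the control on both arrays (42.5% of all genes did) and 6 lay below it on both (30.9% of all genes), so 8 of 10 had both replicates on the same side (73.4% of all genes). These shares describe the members beside the array as a whole, and with 10 genes they were not tested.

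**Figure D1:**
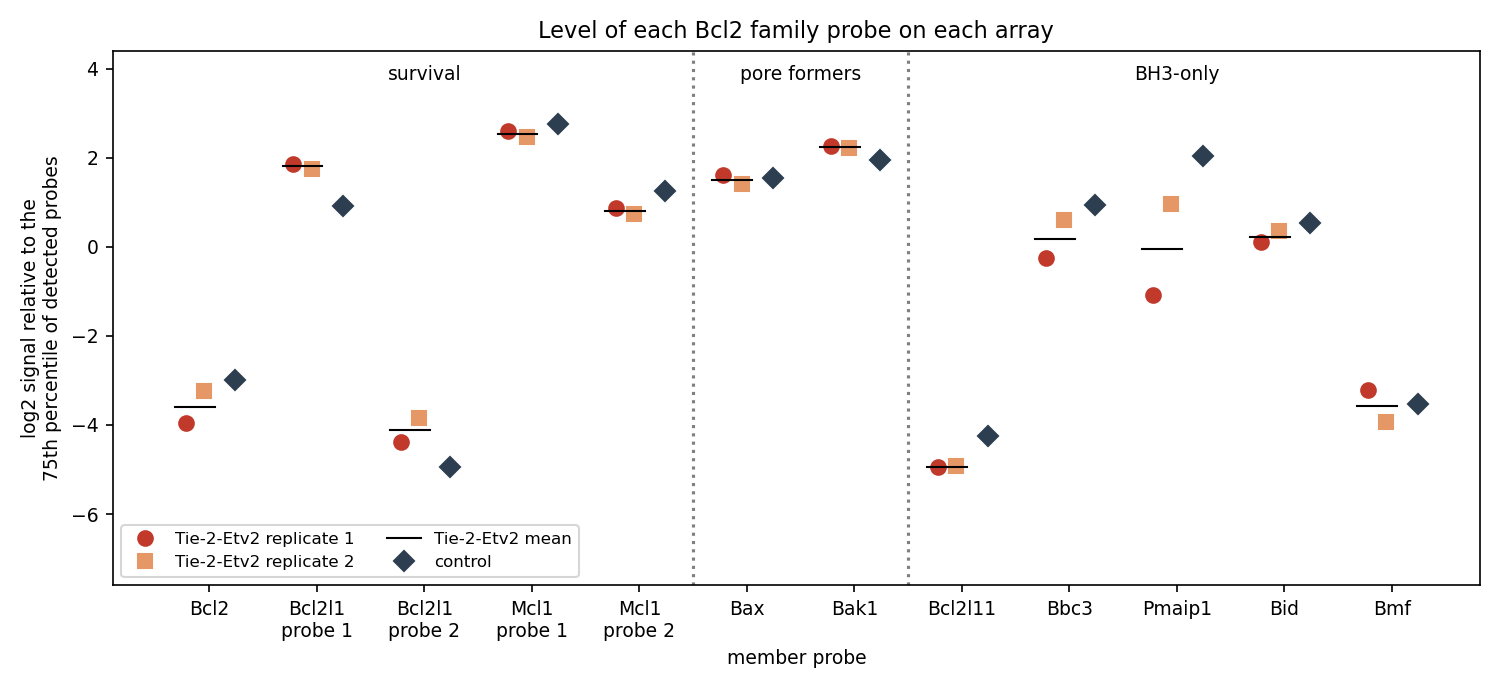
Level of each of the 12 member probes on each array, as log2 signal relative to the array's 75th percentile; circles are Tie-2-Etv2 replicate 1, squares replicate 2, diamonds the control, and bars the Tie-2-Etv2 mean. Bcl2l1 lies above the control on both replicates with both probes, Pmaip1 below it with replicates 2.05 apart; heights of different probes are not comparable.

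Among the survival genes, Bcl2l1 stood above the control and Mcl1 and Bcl2 below it. Bcl2l1 read by probe 1 (mm9, chr2:152606404-152606463, minus strand, from base 2311 of the transcript) gave 362% and 336% on the Tie-2-Etv2 arrays (replicates 1 and 2), against 189% on the control. The replicates lay close together and both well apart from the control. The difference was 0.89 ± 0.32 (SE, n = 2 and 1), which is 1.85-fold higher, with a 95% interval of -0.01 to 1.79, and it did not pass limma's test (adjusted p = 0.483, unadjusted p = 0.0522). Of all tested genes, 92.7% had a lower difference.

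Probe 2 of Bcl2l1, whose sequence reads the BCL-XL stretch shown above, starts 1637 transcript bases upstream of probe 1. It gave 4.77% and 6.94% on the Tie-2-Etv2 arrays, against 3.23% on the control. Both replicates were again above the control, by 0.56 and 1.11, although replicate 2 was here the higher of the pair. The mean difference of 0.83 ± 0.40 did not pass limma's test (adjusted p = 0.610) and lay close to that of probe 1. With normexp background correction it was 0.63. The spots of probe 2 were dim, at 57.1 and 145.2 intensity units on the Tie-2-Etv2 arrays and 66.9 on the control, before scaling. The splice forms were not measured separately.

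MCL1 is a short-lived survival protein, and its gene read slightly below the control with both probes. Probe 1 of Mcl1 (mm9, chr3:95466855-95466914, plus strand) gave 610% and 554% on the Tie-2-Etv2 arrays, against 672% on the control. Probe 2 (mm9, chr3:95465543-95465602) gave 183% and 166%, against 240%. The differences were -0.21 ± 0.32 and -0.46 ± 0.32, with adjusted p of 0.931 and 0.784 by limma. The interval of the first, -1.12 to 0.70, includes 2-fold lower.

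Bcl2, the founding survival gene, gave 6.41% and 10.54% on the Tie-2-Etv2 arrays, against 12.5% on the control. Both replicates were below the control, replicate 1 by much more than replicate 2 (differences of -0.97 and -0.25). The mean difference of -0.61 ± 0.45 had a limma adjusted p of 0.795. With normexp background correction it was -0.34.

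The pore formers lay near the control. BAK resides on the outer mitochondrial membrane, and its gene Bak1 (mm9, chr17:27156807-27156866, minus strand) gave 477% and 465% on the Tie-2-Etv2 arrays, against 388% on the control. Both replicates were above the control by 0.30 and 0.26, a mean of 0.28 ± 0.32 with an interval of -0.61 to 1.17 (limma adjusted p = 0.906). BAX moves to the membrane when activated, and Bax (mm9, chr7:52717122-52717181, minus strand) gave 304% and 265%, against 293%. The control lay between the replicates, and the difference of -0.04 ± 0.33 had an interval of -0.97 to 0.88 (limma adjusted p = 0.988). Bax lay below the control on both arrays with quantile normalization and with spike-in scaling.

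Of the 10 members, the BH3-only gene Pmaip1 had the largest difference. PMAIP1 (NOXA) is a p53 target that neutralises MCL1. Its probe (mm9, chr18:66625088-66625147, plus strand) gave 47.1% and 195% on the Tie-2-Etv2 arrays, against 408% on the control. Both replicates were below the control, by 8.66-fold on replicate 1 and 2.09-fold on replicate 2. The replicates themselves were 2.05 apart on the log2 scale, a gap exceeded by 2.48% of all tested genes. The mean difference of -2.09 ± 0.95 had an interval of -4.75 to 0.57 and did not pass limma's test (adjusted p = 0.589, unadjusted p = 0.0942). Under normexp background correction the difference of -2.03 had a limma adjusted p of 0.000651, where the model gave all probes 1 shared variance and 614 genes passed. Over the alternatives that kept both replicates the adjusted p ran from 0.000651 to 0.673.

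BBC3 (PUMA) is another p53-induced BH3-only protein, and it binds all the survival proteins. Bbc3 (mm9, chr7:16903403-16903462, plus strand) gave 84.4% and 151% on the Tie-2-Etv2 arrays, against 192% on the control. Both replicates were below the control, replicate 1 by 2.27-fold and replicate 2 by 1.27-fold. The mean difference of -0.76 ± 0.48 did not pass limma's test (adjusted p = 0.740).

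BCL2L11 (BIM) is the BH3-only protein of cytokine withdrawal and binds survival proteins as well as BAX. Bcl2l11, read by the BH3-domain probe shown above, gave 3.24% and 3.28% on the Tie-2-Etv2 arrays, against 5.29% on the control. The replicates were nearly equal and both below the control, by 1.63-fold and 1.61-fold. The difference of -0.70 ± 0.32 did not pass limma's test (adjusted p = 0.590). With normexp background correction it was -0.21. The spots were dim, at 38.9 and 68.6 intensity units on the Tie-2-Etv2 arrays and 109.7 on the control.

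BID links the death receptors to the mitochondria once caspase-8 has cut it. Bid (mm9, chr6:120843464-120843523, minus strand) gave 108% and 127%, against 145% on the control. Both replicates were below the control, and the difference of -0.32 ± 0.34 had a limma adjusted p of 0.893. BMF responds to loss of attachment, and Bmf (mm9, chr2:118354496-118354555, minus strand) gave 10.8% and 6.58%, against 8.59%. The control lay between the replicates, with a difference of -0.03 ± 0.44 and an interval of -1.27 to 1.21 (limma adjusted p = 0.993).

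By role, the median difference was -0.21 over the 3 survival genes, 0.12 over the 2 pore formers and -0.70 over the 5 BH3-only genes, beside 0.07 over all tested genes. On replicates 1 and 2 taken singly these medians were -0.14 and -0.25 for the survival genes, 0.18 and 0.059 for the pore formers, and -0.71 and -0.38 for the BH3-only genes. With normexp the BH3-only median was -0.33, and with spike-in scaling the pore former median was 0.038. None of the BH3-only genes lay above the control on both arrays (42.5% of all genes did), and 4 of 5 lay below it on both (30.9% of all genes). The mean log2 level of the survival genes minus that of the BH3-only genes was higher than in the control by 0.97 and 0.64 on the Tie-2-Etv2 arrays. Of its 2 parts, the survival mean differed from the control by -0.06 and 0.10, and the BH3-only mean by -1.02 and -0.54. Within the survival mean, Bcl2l1 was higher and Mcl1 and Bcl2 were lower. Without Pmaip1, a choice made after seeing the values, the survival mean minus the BH3-only mean was higher by 0.44 and 0.51. No test was made of these summary values.

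**Figure D2:**
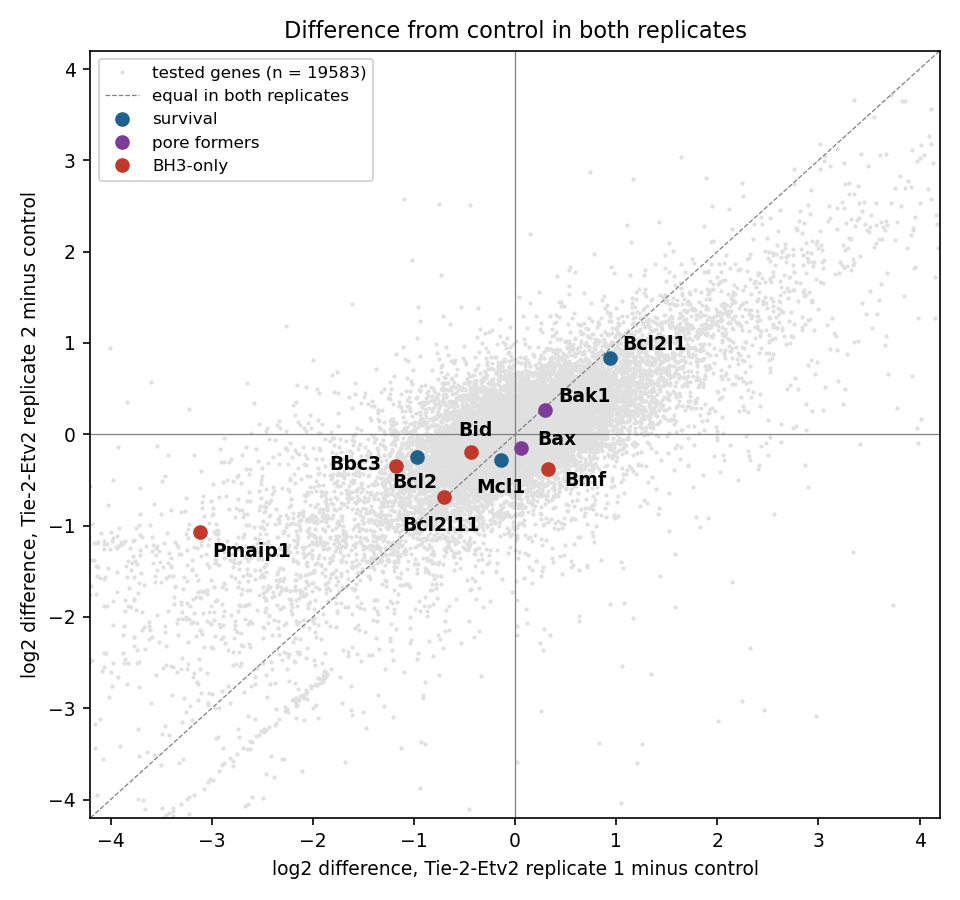
Log2 difference from control on Tie-2-Etv2 replicate 1 (horizontal) and replicate 2 (vertical) for 19583 tested genes in grey and the 10 members in colour by role. Pmaip1 lies at -3.12 and -1.06, Bcl2l1 at 0.94 and 0.83; both axes share the control array, and 325 genes lie outside the limits of 4.2.

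Among 63 genes of the pathway lists described next, the 3 with differences nearest to those of Pmaip1 (Euclidean distance over both replicates) were Ddit3, Bcl2a1d and Bcl2a1c. Their distances of 1.06, 1.08 and 1.30 were large, so none was close to Pmaip1. The nearest to Bcl2l1, at distances of 0.172 and 0.323, were Stat5a (0.81 and 0.72) and Stat3 (0.78 and 0.55). Both encode transcription factors activated by cytokine receptors. With 2 arrays sharing 1 control, such nearness describes these arrays only.

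In the promoter sequences of RefSeq (GRCm38.p6, 250 bases before to 50 after each start), 9 of the 10 members had an entry, with 16 windows. Because the transgene encodes an ETS factor, the ETS core with its flanks, CCGGAA, was searched on both strands, so that it can also read TTCCGG. It was present in 4 of the 16 member windows, of the genes Bcl2l11, Mcl1, Bid and Bcl2l1, and in 14.9% of all 32851 windows (12.0% for the upstream parts alone). The upstream parts of the 3 genes with a match before the start are shown with the match in capitals. In Bcl2l1 the match starts at transcribed base 35. The 3 genes shown lay below the control on both arrays, as did Bcl2 and Bbc3, which have no match in any window. A match is a string of letters and was not tested for binding.
Bcl2l11 (chr2:128125788-128126037, plus strand, match 104 bases before the start): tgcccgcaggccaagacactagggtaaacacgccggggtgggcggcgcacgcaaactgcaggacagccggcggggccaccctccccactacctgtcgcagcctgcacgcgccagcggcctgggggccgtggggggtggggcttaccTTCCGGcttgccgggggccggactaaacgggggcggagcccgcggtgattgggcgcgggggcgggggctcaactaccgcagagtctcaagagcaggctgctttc
Mcl1 (chr3:95658471-95658720, plus strand, matches 63 and 30 bases before the start): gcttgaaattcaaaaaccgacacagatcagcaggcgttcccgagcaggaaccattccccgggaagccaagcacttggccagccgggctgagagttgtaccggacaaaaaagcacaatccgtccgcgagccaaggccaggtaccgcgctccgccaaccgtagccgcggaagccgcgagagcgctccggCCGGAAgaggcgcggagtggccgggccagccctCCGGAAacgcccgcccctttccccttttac
Bid (chr6:120916825-120917074, minus strand, match 145 bases before the start): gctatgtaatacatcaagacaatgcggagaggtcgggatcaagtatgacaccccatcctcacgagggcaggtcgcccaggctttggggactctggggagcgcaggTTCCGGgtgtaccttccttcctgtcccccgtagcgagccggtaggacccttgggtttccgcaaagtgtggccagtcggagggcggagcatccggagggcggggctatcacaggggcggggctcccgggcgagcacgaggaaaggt

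The other genes of the pathway were taken from 5 lists. None of their tested members passed limma's adjusted test, and 4 of 11 other BCL2 relatives, 1 of 17 downstream genes, 0 of 8 death receptor genes, 1 of 16 regulators and 2 of 11 p53 targets had an unadjusted p under 0.05. Among the other BCL2 relatives, 2 genes were 2-fold or more higher on both replicates and 2 were 2-fold or more lower. Bok, a BAX-like gene, was above the control by 3.68 and 2.30, a mean of 2.99 ± 0.68 (limma adjusted p = 0.302). Bcl2l14 was above it by 1.57 and 1.03. Bcl2a1c and Bcl2a1d differed by -3.45 and -2.32, and by -2.77 and -2.09. They are near-identical copies in the mouse, so their probes may share transcripts. The median of the list was 0.03 (-0.0517 with spike-in scaling), beside 0.07 over all genes.

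Downstream of the mitochondria, 0 of 17 genes were 2-fold apart on both arrays, with a median of 0.02 that was negative with quantile normalization, spike-in scaling and the authors' deposited table. In the death receptor list, with a median of -0.05 over 8 tested genes of 10, 1 gene was 2-fold higher: Tnfrsf10b, the receptor of TRAIL, at 2.54 and 1.05. Of the 16 regulators of BCL2 family genes, 11 lay above the control on both arrays, beside 42.5% of all genes, with a median of 0.28 (0.41 on replicate 1 and 0.18 on replicate 2 alone). Ddit3 (CHOP), a transcription factor of endoplasmic reticulum stress, was the 1 regulator 2-fold lower, at -2.05 and -1.07.

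Pmaip1 and Bbc3 are p53 targets, so 11 other targets were set beside them. The list had a median of -0.19 that was positive with normexp (0.0260) and the authors' deposited table (0.0355), with 2 genes above the control on both arrays and 4 below it on both. Each alternative chose anew which probe stands for a gene, and with the deposited table that choice turned the sign. Rows of that table are centred on their median, so the choice there followed the differences between arrays and not brightness. The change of sign with it therefore says nothing about the scaling. Gdf15 was 2-fold lower (-3.40 and -2.54), and on replicate 1 it was not well above background. Perp was 2-fold higher (1.20 and 1.56).

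**Figure D3:**
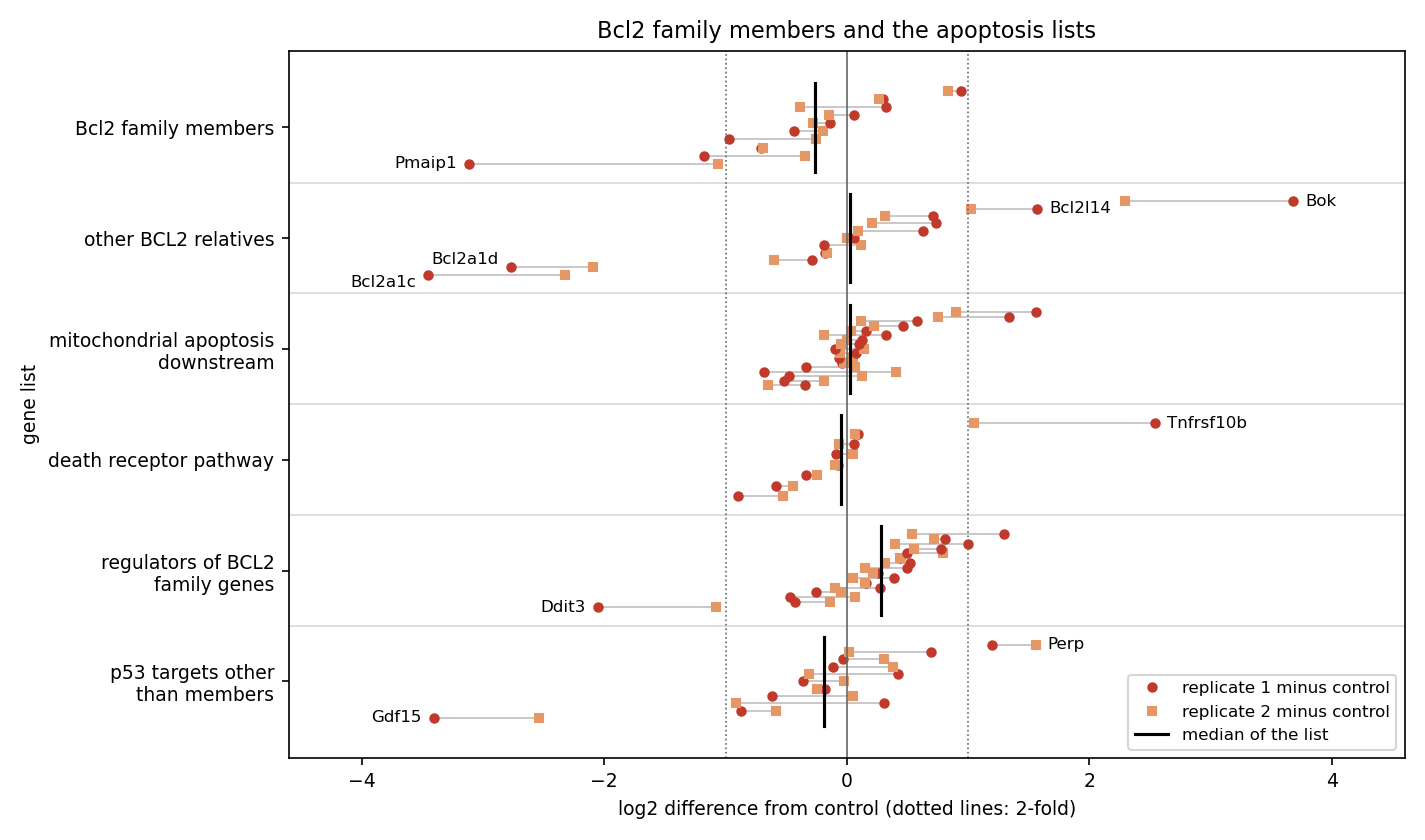
Log2 difference from control of each tested gene of the member list and the 5 pathway lists, circles for Tie-2-Etv2 replicate 1 and squares for replicate 2, joined by gene; black bars are list medians and dotted lines 2-fold. Genes 2-fold apart on both replicates carry names, with Pmaip1 the only member among them.

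Markers of other cell types of the yolk sac also lay apart from the control. Visceral endoderm and mesenchyme are among them, although a sort for VE-cadherin and CD45 should leave those cells out. In a bulk sample, fewer cells of a type and less RNA per cell cannot be told apart. Of the macrophage markers, 9 of 10 were at least 2-fold lower and 1 (Lyz2) higher, with Adgre1 at -6.13 and -4.28, and their signals summed to 5.56 and 17.5 in the Tie-2-Etv2 replicates (in units of the 75th percentile), against 73.6 on the control. Of the granulocyte markers, 5 of 8 were 2-fold higher, with S100a8 at 5.31 and 4.37, and the sum was 50.8 and 52.6, against 19.7. Camp, Elane and Prtn3 were the tested ones not 2-fold higher, and Mpo was the brightest probe of the sum on each array. Of the erythroid markers, 7 of 9 were 2-fold lower, with Hbb-bh1 at -2.47 and -1.82, and the sum was 8.35 and 12.1, against 43.6. Of the megakaryocyte markers, 3 of 6 (Itga2b and Gp9 among them) were 2-fold higher and 1, Pf4 (-1.88 and -1.64), lower, with a sum of 6.19 and 5.44, against 7.25.

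Of the endothelial markers, 6 of 10 were 2-fold higher, with a sum of 11.2 and 6.88, against 4.75. Of the mast cell markers, 1 of 4 (Cpa3) was 2-fold higher, with a sum of 2.38 and 2.11, against 0.979. All 8 visceral endoderm markers were 2-fold lower, with a sum of 1.54 and 11.4, against 27.1. All 5 tested mesenchyme markers were 2-fold lower too, with a sum of 0.103 and 0.0629, against 1.33. Of these, Lum and Dcn were well above background on the control only, so the filter kept them only because they were high there. Foxa2, Klf1 and Gp5, not well above background on replicate 1, were also kept through the control. Ltf, Camp and Sox18 were kept through the Tie-2-Etv2 arrays alone. The direction of markers kept in this way is no separate support. None of the marker genes of any list passed limma's adjusted test, while 9 macrophage, 5 granulocyte, 7 erythroid, 4 megakaryocyte, 6 endothelial, 1 mast cell, 0 visceral endoderm and 5 mesenchyme markers had an unadjusted p under 0.05. Lum, Dcn, Ltf and Sox18 are among those counted. The macrophage, erythroid, visceral endoderm and granulocyte sums were lower on replicate 1 than on replicate 2, as were Pmaip1, Bbc3, Bcl2, Bid, Bcl2l11 (by little) and probe 2 of Bcl2l1. The endothelial, mast cell, megakaryocyte and mesenchyme sums were higher on replicate 1, as were probe 1 of Bcl2l1, both probes of Mcl1, Bak1, Bax and Bmf. Of all tested genes, 67.2% lay further from the control on replicate 1. Of the markers named here, Lyz2, Mpo, Itga2b, Gp9 and Cpa3 were picked with their values in view. The part of these cell types in the members' differences was not tested.

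**Figure D4:**
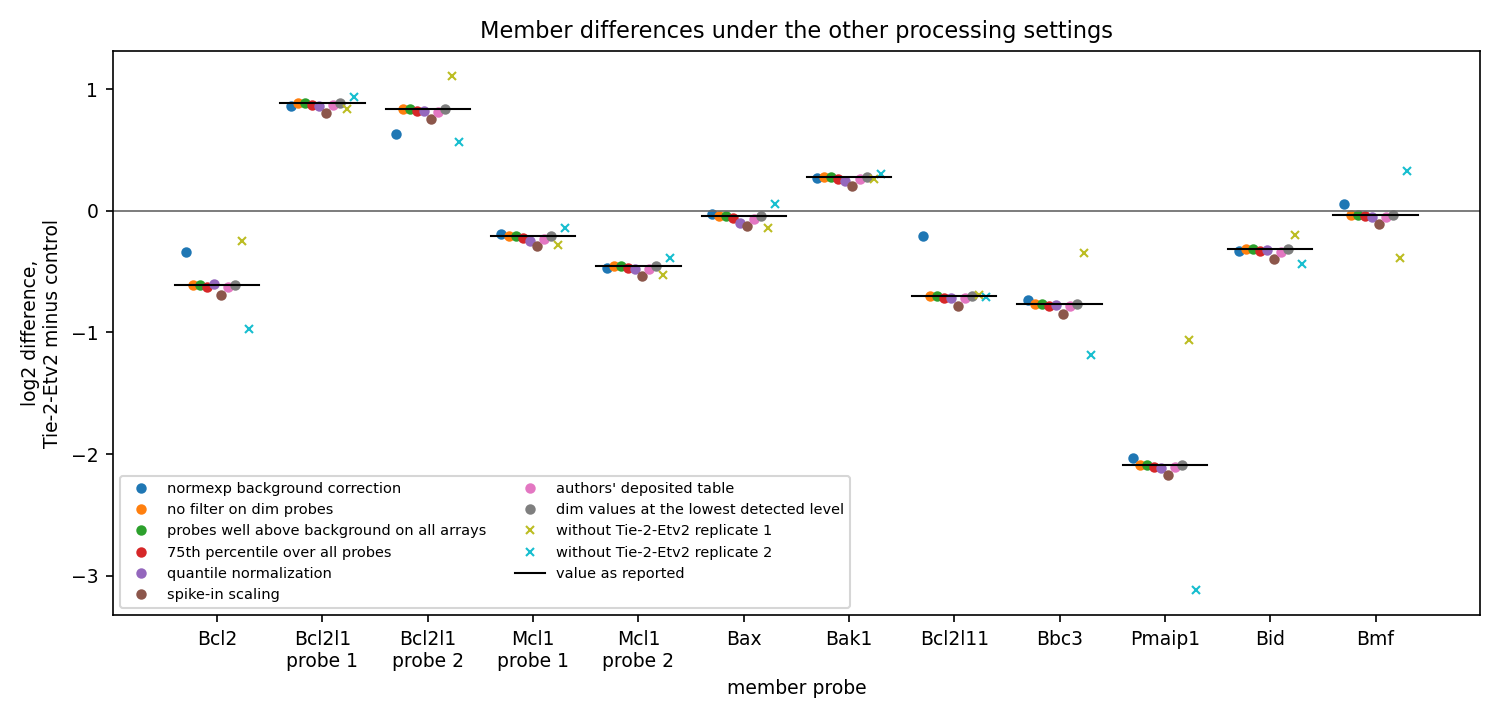
Log2 difference, Tie-2-Etv2 minus control, of each member probe as reported (black bars), under 8 other ways of processing (circles) and without either replicate (crosses). Pmaip1 spans -3.12 to -1.06 between the crosses, while Bcl2l1 probe 1 stays between 0.81 and 0.94.

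Over all 9 ways of processing that used both replicates, each member probe except that of Bax kept its position above, below or around the control. Several of these ways could change no position, or only that of a small difference. The other filters and the floor for dim values leave member values unchanged, as every member probe was well above background throughout. The percentile over all probes, spike-in scaling and the deposited table shift the differences of all probes by a constant per array. Such a shift turns only differences smaller than itself, as spike-in scaling did for Bax. Bcl2l1 by probe 1 ranged from 0.81 to 0.89 and Bak1 from 0.20 to 0.28. Pmaip1 ranged from -2.17 to -2.03, Bbc3 from -0.84 to -0.73, and Bid from -0.40 to -0.32. Bcl2l11 ranged from -0.78 to -0.21 and Bcl2 from -0.69 to -0.34, where normexp gave the values nearest 0.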

How the data were processed

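RNA from 2 Tie-2-Etv2 samples and 1 control sample was read, in Cy3 only, on Agilent arrays of 1 slide. The deposited intensity of each spot comes from Feature Extraction (version 10.7 per the submitters' processing notes, 10.7.3.1 per the file headers). That processed intensity has the background subtracted and no scaling applied from array to array. A second table that the authors deposited holds log2 values of unstated scale and centring. Set against the scanner values, each array's difference from the control was shifted by 1 constant (0.756 and -0.0161 for Tie-2-Etv2 replicates 1 and 2, to within 0.01 in 100% of 55668 probes). Rows were centred on their median, and column medians were 0.138 and 0 for these replicates and 0 for the control. Its direction is thus that of the scanner values, and it served as an alternative.

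Outlier spots (168 to 174 on each array) and control spots were removed, and 0 spots were saturated. Log2 signals of replicate spots were averaged, and each array's 75th percentile over the 22764 probes detected well above background everywhere was subtracted, because no array had more than 48.5% of its probes so detected. Detection in the control, or in both Tie-2-Etv2 replicates, was asked of a probe, and 26217 were kept. Groups were compared by lmFit and eBayes, functions of limma 3.58.1, under R version 4.3.3 (tables read by data.table, version 1.17.8). The test was two-sided, and p-values were adjusted by Benjamini-Hochberg over the kept probes, at 0.05. Its 1 residual degree of freedom is the Tie-2-Etv2 replicates' own, and the control is taken to vary as they do. For a gene with several probes, the probe with the highest average over the group means (probe 1 in the text) stands for it. In the alternatives this choice was made anew, except for the members. On simulated data, 50 probes per size over 10 runs with log2 changes of 1, 2, 4 and 8 were estimated at 1.04, 2.01, 4.00 and 8.04, and on average 0, 0, 0.4 and 43.5 of the 50 passed the adjusted threshold.

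Names of probes were brought up to date from RefSeq (assembly GRCm38.p6), by accession for 26575 probes, symbol for 2602 and synonym for 492, while 25999 kept the deposited name. Members, lists and alternatives were chosen with earlier results of these data known. The text names all members; of each pathway list the genes 2-fold apart on both arrays (at most 4), or else the 2 with the largest differences; Etv2, Tek, Cdh5 and Ptprc; 4 defining markers; and the 3 nearest genes of the member furthest from the control in each direction. Some genes that this rule picks are not reported here. Alternatives were normexp (offset 50), no filter, a filter on all 3 arrays, other scalings (all probes, quantile, spike-ins), the deposited table, a floor for dim values, and each Tie-2-Etv2 array left out.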

Additional observations from a re-analysis of the deposited data

How the results depend on the processing

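The number of arrays limits every value here, and the lone control has no measured spread. No paired analysis was possible because there was 1 control array for 2 Tie-2-Etv2 arrays. Of the recomputed differences of single member probes, 118 kept direction and did not gain the call, 3 turned positive and 1 gained the call. With either replicate left out no test was possible, so there only the direction was compared. The 118 also include the other filters and the floor, which leave member values unchanged, and the exchange of probe for Bcl2l1 and Mcl1. Bmf, at -0.03 as reported, had a difference of 0.0553 with normexp and ran from -0.384 to 0.323 with either replicate left out, and Bax, at -0.04 as reported, ran from -0.145 to 0.0562. Pmaip1 passed with normexp (-2.03, adjusted p = 0.000651 by limma), where the estimated prior degrees of freedom were infinite, against 2.93 as reported. Over all genes, 614 passed the adjusted threshold with normexp and 440 without a filter on dim probes, against 0 as reported. Genes at least 2-fold higher on both arrays numbered 312 with normexp, 1317 with no filter and 502 with probes well above background on all arrays, against 768 as reported. On the 1 remaining array, with either replicate left out, 900 to 1789 genes were 2-fold higher. Genes at least 2-fold lower numbered 491 with normexp and 593 with probes well above background on all arrays, against 1300 as reported, and 1634 to 2193 on the 1 remaining array with either replicate left out. Members 2-fold lower on the 1 remaining array numbered 1 without replicate 1 and 2 without replicate 2, where Bbc3 joined Pmaip1. The survival to BH3-only difference from control was 0.475 with Pmaip1 left out, an alternative chosen after seeing the data, and 0.803 as reported.

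The median over all members was -0.197 with normexp, -0.286 with quantile normalization, -0.343 with spike-in scaling, -0.281 with the authors' deposited table and -0.287 to -0.265 with either replicate left out. That of the death receptor genes was -0.0345 with normexp, -0.0117 with no filter, -0.0681 with the percentile over all probes, -0.132 with spike-ins, -0.0712 with the authors' deposited table and -0.0814 to -0.0793 with either replicate left out. That of the downstream genes was 0.0807 with normexp, -0.0111 with quantile normalization, -0.0572 with spike-ins, -0.0109 with the authors' deposited table and 0.0480 to 0.0718 with either replicate left out, so its sign depends on the setting. That of the other BCL2 relatives was 0.199 with normexp, -0.0517 with spike-ins and 0.0559 to 0.0929 with either replicate left out. That of the p53 targets was 0.0260 with normexp, -0.0692 with no filter and with probes well above background on all arrays, -0.273 with spike-ins, 0.0355 with the authors' deposited table and -0.115 to -0.0220 with either replicate left out. That of the regulators was 0.199 with spike-ins and 0.182 to 0.414 with either replicate left out. For the lists, the probe standing for a gene with several probes was chosen anew in each alternative. A list median can thus shift through probe choice as well as through the scaling or the filter. With the deposited table, probe choice turned the sign of the downstream and p53 target medians. As its rows are centred on their median, that choice did not follow brightness, and these 2 changes of sign say nothing about the scaling. The cause of the other shifts was not tested.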
